A study of Homo sapiens with 12 samples.

Results

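The respiratory chain of the inner mitochondrial membrane is described here in SK-MEL-5 and MALME-3M, established human melanoma cell lines, with and without interferon-γ (IFN-γ). Its members were the rows of the gene table whose symbol names a structural subunit of complexes I to IV, or 1 of the 13 proteins encoded in mitochondrial DNA. They came to 73 of 44700 genes: 60 nuclear genes (37 of complex I, 4 of complex II, 9 of complex III and 10 of complex IV) and 13 MT- genes (7 of complex I, 1 of complex III, 3 of complex IV and 2 of ATP synthase). NDUFA4 was placed with complex I by its symbol, although its protein is now assigned to complex IV. The choice used symbols and no measured value. Past the low-count filter went 57 nuclear and all 13 MT- members, 70 of 15810 genes tested.

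Total RNA of 12 libraries was sequenced, 3 per group. MALME-3M cells were treated with IFN-γ at 200 ng/mL for 24 h or left untreated, and SK-MEL-5 cells with 150 ng/mL for 24 h or left untreated. The labels give the genotype of all 4 groups as WT, and treatment began when the cells were seeded in triplicate wells, so that p-values measure the spread between wells of 1 line. MALME-3M was grown in IMDM with more serum and SK-MEL-5 in MEM, so line, dose and medium cannot be told apart. Gene counts per library were between 15514412 and 22921184. MITF, SOX10, MLANA, PMEL and TYR, which mark melanocytic cells, were each above 250 CPM (gene counts per 1000000, scaled by TMM) in every library. Of the 7 lineage markers listed, 2 rose and 2 fell under IFN-γ in MALME-3M, and 2 fell in SK-MEL-5. Among markers of blood, endothelial, epithelial and stromal cells, PTPRC, CD3E, LYZ, PECAM1, VWF, KRT5, KRT14, EPCAM and COL3A1 reached at most 1.02 CPM in any library. CD68, a lysosomal protein, fell in MALME-3M and LUM, a matrix protein, fell in both lines; their part in the results was not tested. IRF1 and TAP1, which are known to answer to IFN-γ, rose in each line.

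In this chain, complexes I and II pass electrons from NADH and succinate to ubiquinone, complex III passes them on to cytochrome c, and complex IV to oxygen. Complexes I, III and IV pump protons as they do so, and ATP synthase uses the gradient. Complex II is made from nuclear genes alone. The others mix nuclear subunits, translated in the cytosol and imported, with subunits translated on mitochondrial ribosomes, so 2 genomes have to supply 1 machine. In melanoma, the coactivator PGC-1α, encoded by PPARGC1A and switched on by MITF, is known to raise nuclear genes of the chain in part of the tumours. Nuclear members are also known as targets of the factors NRF1, of ETS factors such as GABP, of YY1 and of SP1.

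Sequences were taken for the nuclear members called lower in both lines under IFN-γ in the fit of all 12 libraries. They show what stands before a RefSeq start of each. RefSeq promoters (build GRCh38.p14) were found for 50 of the 60 nuclear members and for 5 of those 6 genes. The 250 bases before the start are given 5′ to 3′ on the gene's strand, which is the minus strand for each of the 5. Capitals mark matches, on either strand, to GCGCATGC (NRF1), CCGGAAG (ETS), AAGATGGC (YY1) or GGGCGG (SP1), and no match overlapped another. The start used is the first listed that falls in a GENCODE 29 transcript of the gene. GENCODE 29 also lists starts further upstream, so that 138 bases of the SDHB stretch, 159 of NDUFS1, 60 of NDUFA10, 250 of NDUFA5 and 183 of NDUFA6 lie inside the annotated span of the gene. In the order printed, the stretches lie at chr1:17054033-17054282, chr2:206159445-206159694, chr2:240025343-240025592, chr7:123557819-123558068 and chr22:42090773-42091022.
SDHB: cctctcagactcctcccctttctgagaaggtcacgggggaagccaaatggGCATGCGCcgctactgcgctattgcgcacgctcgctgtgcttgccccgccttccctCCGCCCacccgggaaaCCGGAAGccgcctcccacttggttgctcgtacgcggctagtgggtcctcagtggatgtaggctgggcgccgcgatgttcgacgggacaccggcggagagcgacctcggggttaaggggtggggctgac
NDUFS1: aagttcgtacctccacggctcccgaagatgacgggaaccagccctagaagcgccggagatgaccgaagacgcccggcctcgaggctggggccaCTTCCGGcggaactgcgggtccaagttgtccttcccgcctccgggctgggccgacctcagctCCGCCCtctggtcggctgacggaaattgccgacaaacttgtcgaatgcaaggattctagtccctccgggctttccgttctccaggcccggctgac
NDUFA10: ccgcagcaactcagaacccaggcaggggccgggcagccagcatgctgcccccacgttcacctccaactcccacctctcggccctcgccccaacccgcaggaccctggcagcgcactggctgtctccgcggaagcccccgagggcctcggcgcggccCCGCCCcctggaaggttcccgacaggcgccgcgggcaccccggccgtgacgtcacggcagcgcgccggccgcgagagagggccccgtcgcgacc
NDUFA5: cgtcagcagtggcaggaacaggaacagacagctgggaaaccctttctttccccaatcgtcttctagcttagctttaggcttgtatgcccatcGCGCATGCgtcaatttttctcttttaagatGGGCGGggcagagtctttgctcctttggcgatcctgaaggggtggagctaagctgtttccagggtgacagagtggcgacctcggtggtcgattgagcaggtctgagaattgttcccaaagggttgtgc
NDUFA6: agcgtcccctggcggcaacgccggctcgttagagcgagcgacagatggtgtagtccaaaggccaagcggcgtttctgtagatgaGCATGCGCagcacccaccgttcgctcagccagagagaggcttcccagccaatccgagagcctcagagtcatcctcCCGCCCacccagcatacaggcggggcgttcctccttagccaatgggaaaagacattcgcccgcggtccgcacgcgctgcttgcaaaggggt

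The SDHB, NDUFA5 and NDUFA6 stretches each hold the NRF1 letters, SDHB and NDUFS1 the ETS letters, and all 5 the SP1 letters. The YY1 letters stand in SDHB and NDUFA6 past the start, outside the stretch printed. Over the whole 300 bases of every start listed for a gene, the NRF1 letters were in 20.0% of the 50 nuclear members with a promoter. They were in 6.26% of the 10326 tested genes with a promoter and in 3.68% of all 27305 genes with one. A gene counted if any of its starts had the letters, and the number of starts, which varies, was not corrected for. The YY1 letters were in 18.0%, 6.27% and 3.52% of the same sets, and the ETS letters in 30.0%, 21.5% and 12.2%. The SP1 letters, at 62.0%, were less common than in tested genes (76.3%). Among members that fell in MALME-3M, 5 of 15 with a promoter had the NRF1 letters, against 5 of 33 other members tested. These shares describe letters in a window, not binding, and none was tested.

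After 24 h of IFN-γ, nuclear members were slightly lower in MALME-3M. Of 57 tested, 21 fell and 1 rose (edgeR quasi-likelihood test, Benjamini-Hochberg adjusted p below 0.05). A log2 fold change below 0 was seen in 45 of them and in 7749 of the 15810 genes tested. Fewer cells of a kind and less RNA per cell cannot be told apart in bulk samples. The median was -0.15, against 0.00074 over all genes tested. Of all genes tested, 8.77% were called lower and 9.51% higher, beside 36.8% of the nuclear members lower. Well-measured genes are called more readily: among genes at 20 CPM or more, 14.7% were called lower, and 21 of 45 nuclear members (46.7%). Falls were small, from 10.3% to 31.6%. In each of the 21 the treated and untreated libraries did not overlap, which adds no support, since the same libraries gave the calls. Leaving out untreated replicate 1 or untreated replicate 3 left 13 lower in each case, and NDUFB4, the member that rose, was no longer called without any of 5 MALME-3M libraries. COX4I1, NDUFA10, NDUFA5, NDUFA6, NDUFB10, NDUFB5, SDHB, SDHC and UQCRB, 9 of the 21, stayed called in each of the 12 omissions.

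In SK-MEL-5 fewer nuclear members were called, and the difference between the lines was tested gene by gene. Of 57 nuclear members 8 fell (14.0%) and 1 rose, and 45 were below 0, beside 8736 of 15810 genes tested. The median was -0.08 against -0.03 over all genes. The background was 7.05% called lower and 5.98% called higher. At 20 CPM or more it was 12.6% lower, beside 8 of 45 nuclear members (17.8%), a share close to the background. All 8 calls were lost in at least 1 omission of a library. Without treated replicate 3 only UQCRFS1 remained lower (-0.27, adjusted p = 0.037). The count was 2 without untreated replicate 2, 3 without treated replicate 1, 4 without untreated replicate 1 and 5 without treated replicate 2. It was 2 without MALME-3M treated replicate 1, 4 without MALME-3M treated replicate 3 and 5 without MALME-3M untreated replicate 2, libraries that enter through the scaling and the shared spread alone.

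**Figure D1:**
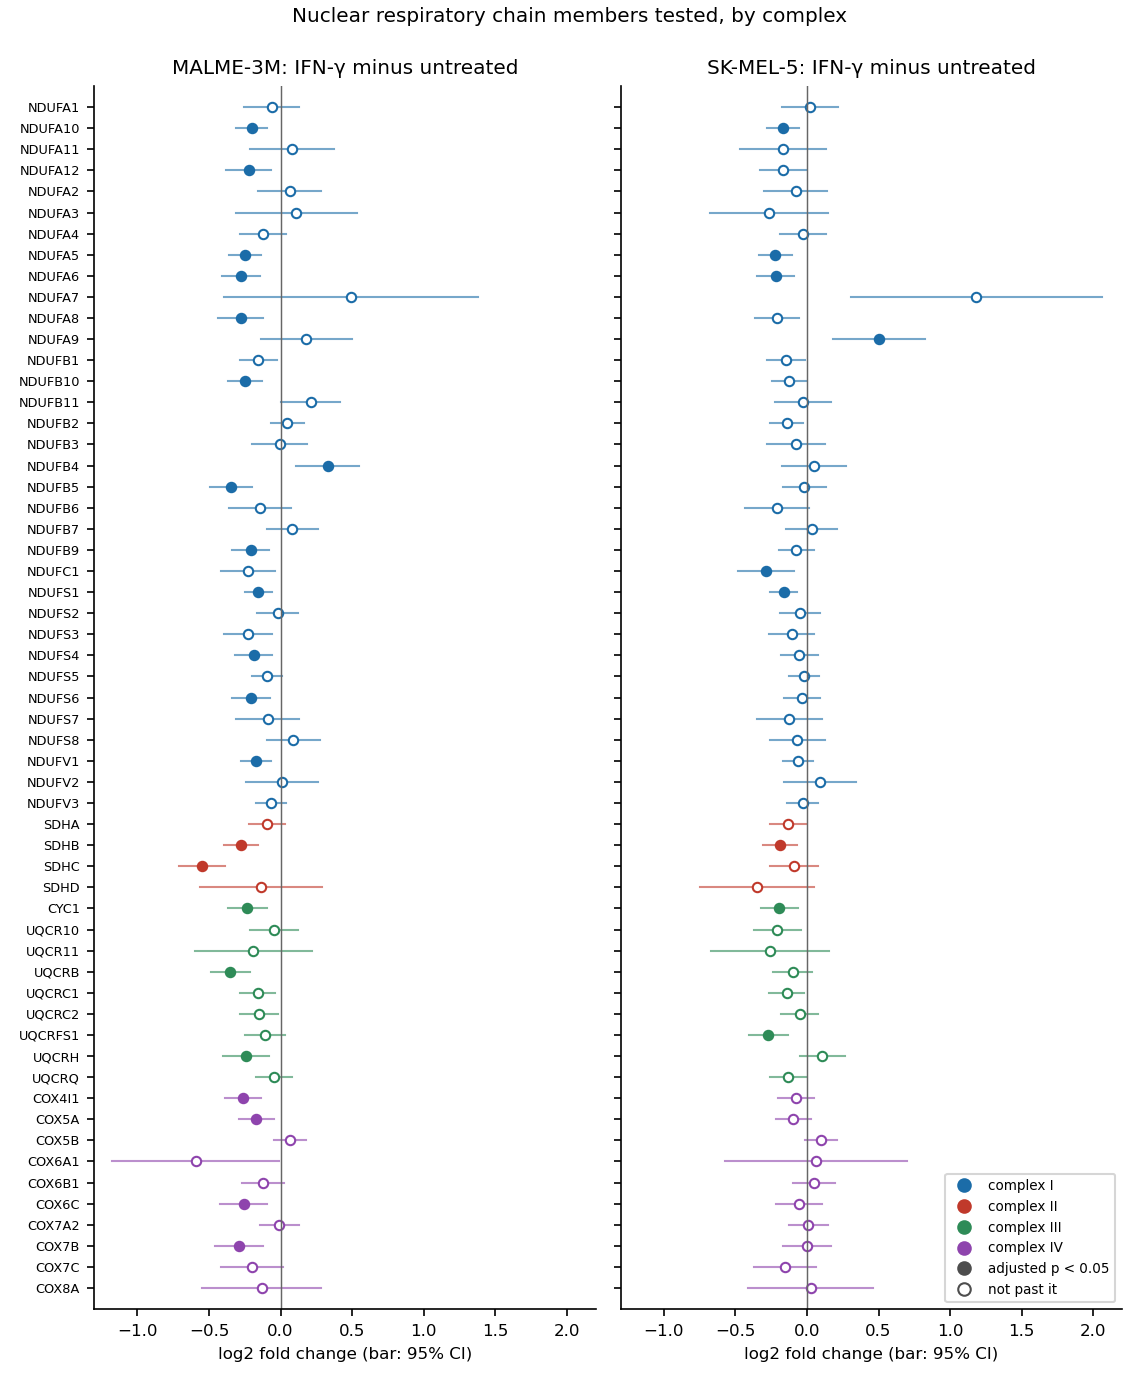
Log2 fold changes under IFN-γ of the 57 nuclear members tested (rows, coloured by complex), MALME-3M on the left and SK-MEL-5 on the right. Points are estimates, bars 95% intervals, and filled points passed an adjusted p of 0.05. In MALME-3M 21 filled points lie left of 0 and 1 right of it, and in SK-MEL-5 8 lie left and 1 right.

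Complex II, which oxidises succinate and belongs to the citric acid cycle as well, held the member with the largest fall that passed the test. SDHC (ENSG00000143252.14, chromosome 1, bases 161314257 to 161375340 of GRCh38, plus strand), which anchors the complex in the membrane, had 48.9, 43.8 and 39.2 CPM in treated and 70.4, 60.3 and 61.9 CPM in untreated MALME-3M libraries. All treated libraries lay below all untreated ones, and the log2 fold change was -0.55 ± 0.077 (SE; edgeR adjusted p = 4.05e-05). In SK-MEL-5 it had 34.6, 35.3 and 38.0 CPM in treated and 38.1, 38.7 and 37.9 CPM in untreated libraries, overlapping groups at lower levels than untreated MALME-3M (-0.09 ± 0.079, adjusted p = 0.549).

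SDHC was the single nuclear member for which the 2 IFN-γ changes themselves differed, by -0.46 ± 0.11 (MALME-3M minus SK-MEL-5, edgeR adjusted p = 0.0212). That is 1.75% of the nuclear members called lower, near the background of 1.79% in that comparison. Of the nuclear members 0 were called higher, beside 2.67% of all genes. The difference in SDHC was -0.46 without MALME-3M treated replicate 2 (adjusted p = 0.0507), -0.39 without MALME-3M untreated replicate 1 (adjusted p = 0.0522) and -0.42 without SK-MEL-5 treated replicate 3 (adjusted p = 0.0666). By estimated counts per transcript, summed to genes, it was -0.52 (adjusted p = 0.41). Without MALME-3M treated replicate 1, the difference was called for 4 members, COX4I1, NDUFB5, SDHC and UQCRB. It was called for 2 without MALME-3M treated replicate 3, MALME-3M untreated replicate 2, SK-MEL-5 treated replicate 1 or SK-MEL-5 untreated replicate 2.

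SDHB, the iron-sulfur subunit that hands electrons on, had 90.3, 92.6 and 84.6 CPM in treated and 107, 111 and 106 CPM in untreated MALME-3M libraries, a fall of 17.4% (-0.27 ± 0.057, adjusted p = 0.00179). It had 130.2, 128 and 124 CPM in treated and 147, 154 and 135 CPM in untreated SK-MEL-5 libraries, a fall of 12.2% (-0.19 ± 0.056, adjusted p = 0.0315). The groups stood apart in both lines, although the SK-MEL-5 call was lost in 7 of 12 omissions. SDHA, the catalytic flavoprotein, was at -0.09 in MALME-3M and -0.13 in SK-MEL-5. SDHD, the other anchor, was at -0.14 in MALME-3M and -0.35 in SK-MEL-5, at 3 to 8 CPM. Neither was called in either line.

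Complex III passes electrons from ubiquinol to cytochrome c. UQCRB, a small subunit near the ubiquinone site, had 148, 136 and 129 CPM in treated and 188, 156 and 182 CPM in untreated MALME-3M libraries. Treated libraries were all lower, with a log2 fold change of -0.35 ± 0.065 (adjusted p = 0.000724). SK-MEL-5 showed 214, 217 and 229 CPM treated and 226, 243 and 238 CPM untreated, groups that overlapped (-0.10, adjusted p = 0.38). CYC1, cytochrome c1 itself, had 36.0, 40.5 and 44.0 CPM in treated and 47.98, 48.41 and 45.39 CPM in untreated MALME-3M libraries (-0.23 ± 0.065, adjusted p = 0.0163). In SK-MEL-5 it had 99.0, 105 and 99.6 CPM treated and 118, 118 and 112 CPM untreated (-0.19 ± 0.061, adjusted p = 0.0421), so treated libraries were the lower ones in both lines. The MALME-3M change of CYC1 was -0.17 without treated replicate 1 (adjusted p = 0.074), -0.22 without untreated replicate 1 (adjusted p = 0.0565) and -0.22 without untreated replicate 2 (adjusted p = 0.0651).

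UQCRH, the acidic hinge protein, fell in MALME-3M (-0.24 ± 0.075). UQCRFS1, the Rieske iron-sulfur protein, fell in SK-MEL-5, with 70.4, 65.9 and 67.3 CPM treated and 90.1, 81.8 and 74.1 CPM untreated (-0.27 ± 0.065, adjusted p = 0.00827). Without untreated replicate 1 the UQCRFS1 change was -0.20 (adjusted p = 0.058), and its gene counts were 36.3 times its estimated counts. In all, 3 of 9 nuclear members of complex III fell in MALME-3M (33.3%) and 2 of 9 in SK-MEL-5 (22.2%). Of all genes tested, 8.77% and 7.05% were called lower, and of those at 20 CPM or more 14.7% and 12.6%. Estimates were below 0 for 9 of 9 members in MALME-3M and 8 of 9 in SK-MEL-5, beside 7749 and 8736 of 15810 genes.

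Complex I, the NADH dehydrogenase, is the largest complex. In MALME-3M, 12 of its 34 tested nuclear members fell (35.3%, beside 8.77% of all genes tested). They included both NDUFV1, which binds NADH, and NDUFS1, the large subunit that carries iron-sulfur clusters. NDUFS1 had 228, 237 and 222 CPM in treated and 252, 257 and 257 CPM in untreated MALME-3M libraries, a fall of 10.3% (-0.16 ± 0.045, adjusted p = 0.02). It had 198, 199 and 186 CPM in treated and 216, 222 and 214 CPM in untreated SK-MEL-5 libraries, a fall of 10.6% (adjusted p = 0.0219). Untreated libraries were higher than all treated ones in each line.

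NDUFA5 and NDUFA6, accessory subunits of the matrix arm, fell in both lines. NDUFA5 had 98.9, 100.3 and 96.5 CPM in treated and 119, 115 and 117 CPM in untreated MALME-3M libraries (-0.25 ± 0.053, adjusted p = 0.00241), and 64.6, 71.8 and 63.6 CPM in treated and 75.7, 77.6 and 79.7 CPM in untreated SK-MEL-5 libraries (-0.22 ± 0.054, adjusted p = 0.00966). NDUFA6, which belongs to the LYR family, had 94.6, 99.7 and 93.0 CPM in treated and 127, 114 and 107 CPM in untreated MALME-3M libraries (-0.28 ± 0.062, adjusted p = 0.00393). In SK-MEL-5 NDUFA6 had 108, 111 and 100.3 CPM treated and 123, 127 and 122 CPM untreated (-0.22 ± 0.062, adjusted p = 0.0236). The treated and untreated groups of both genes did not overlap in either line. Gene counts of NDUFA6 were 11.3 times its estimated counts, by which its SK-MEL-5 change was 0.26.

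NDUFA10, an accessory subunit of the membrane arm, had 161, 167 and 156 CPM in treated and 186, 186 and 184 CPM in untreated MALME-3M libraries (-0.20 ± 0.052, adjusted p = 0.0102). It had 152, 151 and 137 CPM in treated and 161, 173 and 161 CPM in untreated SK-MEL-5 libraries (-0.17 ± 0.053, adjusted p = 0.0405). NDUFB5, also of the membrane arm, fell in MALME-3M, with 68.0, 64.2 and 59.4 CPM treated and 75.2, 86.0 and 82.4 CPM untreated (-0.35 ± 0.07, adjusted p = 0.00142), and overlapped in SK-MEL-5 at 59.2, 60.2 and 57.2 CPM treated and 58.1, 65.9 and 54.8 CPM untreated. NDUFB10 fell in MALME-3M to 182, 163 and 167 CPM in treated, against 203, 207 and 199 CPM in untreated libraries (-0.25 ± 0.056). The remaining complex I members that fell there were NDUFA8 (-0.28), NDUFA12 (-0.22), NDUFS6 (-0.21), NDUFB9 (-0.21) and NDUFS4 (-0.19).

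Exceptions rose. NDUFB4, a membrane arm subunit, had 34.9, 34.9 and 35.8 CPM in treated and 26.7, 28.1 and 29.3 CPM in untreated MALME-3M libraries (0.33 ± 0.10, adjusted p = 0.0342). NDUFA9, a subunit near the quinone site measured at low counts, had 7.92, 8.45 and 8.34 CPM in treated and 6.68, 6.10 and 4.66 CPM in untreated SK-MEL-5 libraries (0.51 ± 0.15, adjusted p = 0.0345). Treated libraries were above untreated ones in each case. NDUFA9 gave adjusted p-values of 0.0653, 0.102, 0.0999, 0.0721 and 0.166 when treated replicates 1, 2 or 3 or untreated replicates 2 or 3 of SK-MEL-5 were left out. NDUFB4 gave 0.0714, 0.0771, 0.123, 0.108 and 0.081 without treated replicates 1, 2 or 3 or untreated replicates 1 or 2 of MALME-3M. NDUFC1 also fell in SK-MEL-5 (-0.29 ± 0.092), a call lost in 9 omissions.

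Complex IV, cytochrome c oxidase, had 4 of 10 nuclear members lower in MALME-3M and 0 of 10 called in SK-MEL-5 by edgeR or DESeq2, with 0 at an unadjusted p below 0.05. COX4I1, the subunit that joins the catalytic core early in assembly, had 279, 257 and 232 CPM in treated and 324, 304 and 293 CPM in untreated MALME-3M libraries (-0.26 ± 0.059, adjusted p = 0.0035). In SK-MEL-5 it had 314, 335 and 319 CPM treated and 334, 349 and 338 CPM untreated, overlapping groups. COX7B (-0.29), COX6C (-0.26) and COX5A (-0.17) were the others that fell in MALME-3M. For all 10 the MALME-3M estimate was below the SK-MEL-5 one, but edgeR called the difference for 0 of 10, with 2 at an unadjusted p below 0.05 and 0 by DESeq2.

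**Figure D2:**
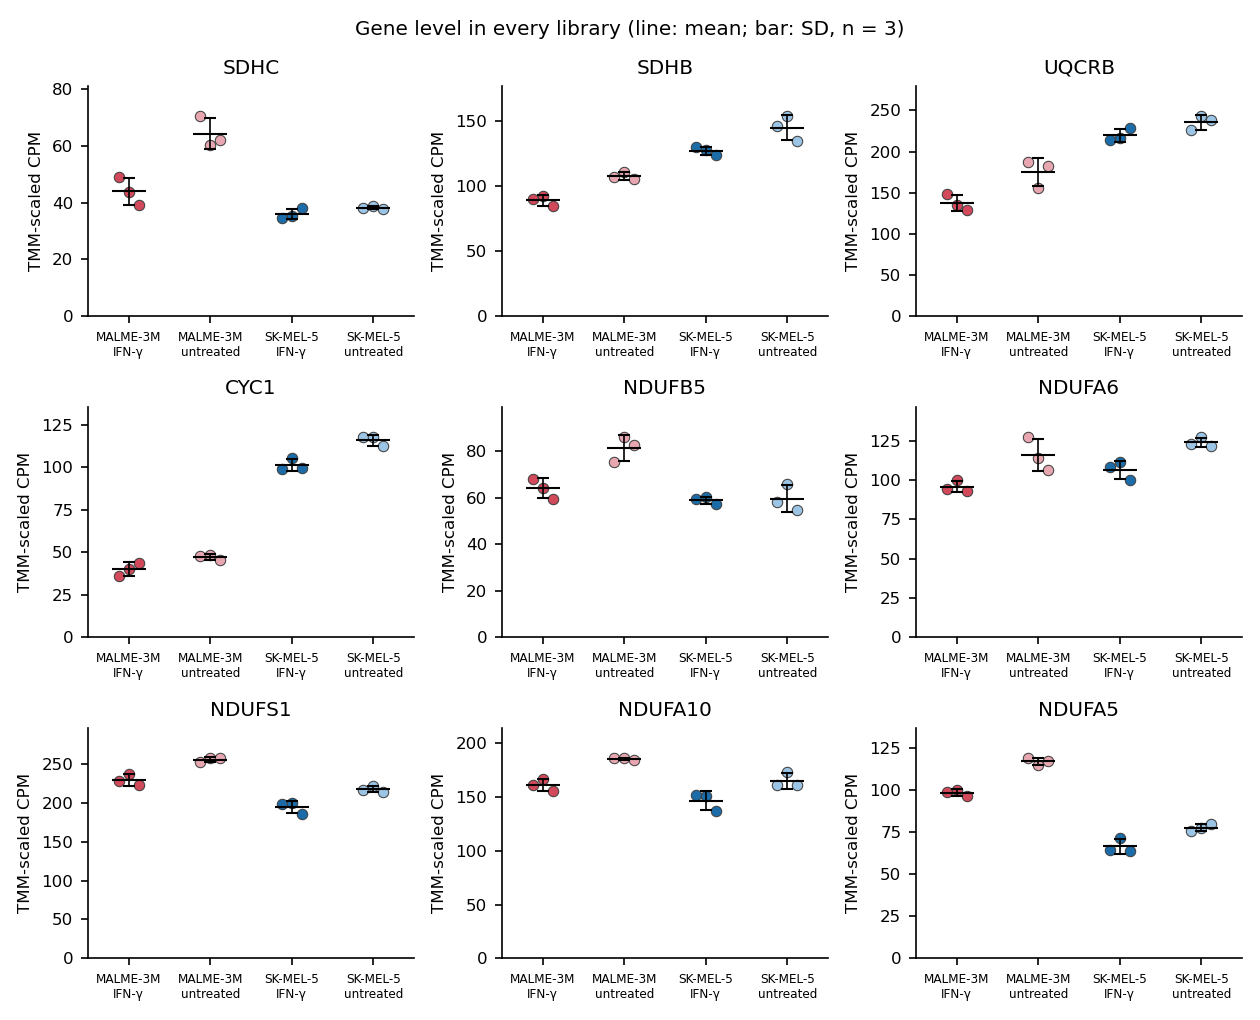
TMM-scaled CPM of 9 nuclear members in each library, with groups in the order MALME-3M treated, MALME-3M untreated, SK-MEL-5 treated and SK-MEL-5 untreated, and the mean and SD of each group. SDHC, UQCRB and NDUFB5 are lower in treated MALME-3M with overlapping groups in SK-MEL-5, while the other 6 are lower after treatment in both lines.

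The members called lower in both lines were CYC1, NDUFA10, NDUFA5, NDUFA6, NDUFS1 and SDHB, 28.6% of the MALME-3M list and 6 of the 8 in the SK-MEL-5 list. Over all genes the 480 called lower in both made up 34.6% of the MALME-3M list and 43.1% of the SK-MEL-5 list. Estimates were below 0 in both lines for 39 of 57 nuclear members (68.4%) and for 33.6% of all genes tested. Well-measured genes lean below 0 more often. At 20 CPM or more, 4064 of 7504 genes and 39 of 45 nuclear members were below 0 in MALME-3M. In SK-MEL-5 these were 4652 of 7504 and 37 of 45. The lines share no control libraries, but they share 1 estimate of the spread.

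Summed over nuclear members, the level was 4169, 4145 and 3926 CPM in treated and 4783, 4507 and 4489 CPM in untreated MALME-3M libraries. It was 4897, 5103 and 4832 CPM in treated and 5224, 5537 and 5128 CPM in untreated SK-MEL-5 libraries. The treated sums were the lower ones in both lines, without overlap. Other counts of the libraries moved alongside. The summed level of cytosolic ribosomal proteins was 22946, 22329 and 21646 CPM in treated and 25043, 24150.4 and 24147 CPM in untreated MALME-3M, with 26 of 83 called lower and 1 higher. In SK-MEL-5 it was 29168, 30053 and 28634 CPM treated and 31558, 31474 and 30133 CPM untreated, with 18 lower and 3 higher. The shares lower, 31.3% in MALME-3M and 21.7% in SK-MEL-5, stand beside 8.77% and 7.05% of all genes. At 20 CPM or more those backgrounds were 14.7% and 12.6%. The nuclear RNA MALAT1 took 2.23, 2.27 and 1.85% of gene counts in treated and 1.75, 1.85 and 1.76% in untreated MALME-3M libraries, and 1.40, 1.36 and 1.36% in treated and 1.23, 1.27 and 1.27% in untreated SK-MEL-5 libraries. NEAT1, another nuclear RNA, rose in both lines (0.39 and 0.28). Their part in the results on nuclear members was not tested.

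The neighbouring machinery was read from further lists. Of 16 nuclear genes of ATP synthase, 5 fell in MALME-3M (31.25%, beside 8.77% of all genes tested). Among them were ATP5H (-0.31), ATP5F1 (-0.30), ATP5G3 (-0.29) and ATP5A1 (-0.19). In SK-MEL-5 edgeR and DESeq2 called 0 of them, with 3 lower at an unadjusted p below 0.05. ATP5H, a subunit of the stalk, differed between the lines in its change (-0.35, edgeR adjusted p = 0.0364). Of 14 enzymes of the citric acid cycle, 5 fell in MALME-3M (35.7%) and 1 in SK-MEL-5 (7.14%, near the 7.05% of all genes). At 20 CPM or more the background was 14.7% lower in MALME-3M and 12.6% in SK-MEL-5. SUCLG1, a subunit of succinyl-CoA ligase, fell in both (-0.30 and -0.20).

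CYCS, cytochrome c, fell to 273, 268 and 245 CPM in treated, against 385, 345 and 359.9 CPM in untreated MALME-3M libraries (-0.47, adjusted p = 1.21e-05). It fell to 571, 578 and 530.3 CPM in treated, against 658, 727 and 627 CPM in untreated SK-MEL-5 libraries (-0.26, adjusted p = 0.00584). The 2 lines thus showed the same order for the carrier that joins complexes III and IV, with no overlap. COX7A2L, which links complexes into supercomplexes, fell in both as well (-0.26 in MALME-3M and -0.30 in SK-MEL-5). In each line these were 2 of 6 tested genes of a list of other subunits, isoforms and carriers (33.3%). Of 17 complex I assembly factors 1 fell in each line, C17orf89 in MALME-3M and TMEM261 in SK-MEL-5 (5.88% in each, below the 8.77% and 7.05% of all genes). LYRM7 fell in MALME-3M (-0.46), 1 of 10 assembly factors of complexes II and III (10.0%, near the 8.77% of all genes). COX20, which handles MT-CO2, fell in both lines (-0.48 and -0.21), 1 of 4 complex IV assembly factors of 20 tested that fell in MALME-3M and the 1 of 20 that fell in SK-MEL-5 (20.0% and 5.00%, against the same backgrounds). NDUFA4L2, COX4I2, COX7A1 and the other tissue-specific isoforms listed were near 0 in all 12 libraries and were not tested.

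Of 14 regulators, 2 fell (14.3%) and 1 rose (7.14%) in MALME-3M, beside 8.77% and 9.51% of all genes. In SK-MEL-5, 1 of 14 fell (7.14%, near the 7.05% of all genes). PPARGC1A fell in both lines. It had 38.3, 35.8 and 27.4 CPM in treated and 51.2, 52.9 and 57.3 CPM in untreated MALME-3M libraries (-0.67, adjusted p = 1.27e-05). It had 250.4, 238 and 242 CPM in treated and 283, 297 and 296 CPM in untreated SK-MEL-5 libraries (-0.26, adjusted p = 0.0351). Every treated library was lower than every untreated one of its line, and the difference between the lines' changes was -0.41 (edgeR adjusted p = 0.0527). NRF1 and GABPA, known activators of nuclear members, were not called in either line. MYC fell (-0.19) and the nuclear receptor ESRRG rose (0.79) in MALME-3M.

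Genes that express the mitochondrial genome were called in both directions, and more often lower. Of 27 tested, 6 fell (22.2%) and 1 rose in MALME-3M, and 5 fell (18.5%) and 1 rose in SK-MEL-5. Of all genes, 8.77% and 7.05% were called lower. LRPPRC, which stabilises mitochondrial mRNAs, fell in both (-0.15 and -0.14), as did GRSF1, MTPAP and FASTKD1. FASTK, a granule protein needed for MT-ND6 mRNA, rose in both (0.41 in MALME-3M and 0.67 in SK-MEL-5), and TFAM, the packaging and transcription factor of mitochondrial DNA, fell in MALME-3M (-0.19, adjusted p = 0.0291). Mitochondrial ribosomal proteins had 14 of 73 lower and 0 higher in MALME-3M, among them MRPS9 (-0.35), and 7 lower and 0 higher in SK-MEL-5. Those are 19.2% against a background of 8.77% in MALME-3M, and 9.59% against 7.05% in SK-MEL-5. Among genes at 20 CPM or more, 14.7% were called lower in MALME-3M and 12.6% in SK-MEL-5, the latter above the 9.59%. DESeq2 called 15 and 10 of them lower and 0 higher in either line, and 1 was higher in each at an unadjusted p below 0.05.

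The 13 MT- members are described apart. In each line edgeR and DESeq2 called 0 of 13 under IFN-γ, with 0 at an unadjusted p below 0.05, and the difference between the lines' changes was called for 0 of 13 by both, again with 0 at an unadjusted p below 0.05. Without the low-count filter edgeR called MT-ND4L lower in MALME-3M (-0.13), and in SK-MEL-5 MT-CO2 lower (-0.09) and MT-ND3 (0.19), MT-ND4 (0.11) and MT-ND5 (0.16) higher. It then also called the difference lower for MT-ND4, MT-ND4L and MT-ND5. Median log2 fold changes were -0.05 in MALME-3M and 0.01 in SK-MEL-5, and leaving out 1 library moved them across 0, from -0.1768 to 0.04417 in MALME-3M and from -0.08557 to 0.1236 in SK-MEL-5. The intervals of single MT- members leave room for changes of the size seen among nuclear ones, since 95% bounds ran from -0.36 to 0.25 in MALME-3M and from -0.29 to 0.47 in SK-MEL-5. MT-CO1, the catalytic core of complex IV, had 12221, 10546 and 9001 CPM in treated and 10414, 10325 and 10982 CPM in untreated MALME-3M libraries. In SK-MEL-5 it had 8151, 7981 and 7966 CPM treated and 9467, 8122 and 6838 CPM untreated. The groups overlapped in both lines, and the treated MALME-3M libraries spread most.

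As a share of gene counts, the MT- members came to 5.16, 4.33 and 3.92% in treated and 4.39, 4.62 and 4.85% in untreated MALME-3M libraries. In SK-MEL-5 they came to 3.63, 3.98 and 4.20% in treated and 4.44, 3.76 and 3.41% in untreated libraries. The groups overlapped in each line. It was set against a technical count of the same libraries, the alignments not counted because they were not unique, which numbered 7.47 to 13.7 per gene count. Both measures are divided by the gene counts. Of the relations, 1 passed the adjustment, Pearson's r in MALME-3M. Across the 6 MALME-3M libraries Pearson's r was 0.938 (exact permutation p = 0.0111, adjusted over 4 relations 0.0444) and Spearman's rho 0.886 (exact p = 0.0333, adjusted 0.133). Without the 2 libraries farthest from the median, both treated, r was 0.774. Across the 6 SK-MEL-5 libraries r was 0.754 (exact p = 0.0847, adjusted 0.169) and rho 0.714 (exact p = 0.136, adjusted 0.272), and r was 0.970 without the 2 farthest. For the median level of nuclear members r was 0.0912 in MALME-3M (exact p = 0.856, adjusted 0.964; rho 0.2, exact p = 0.714, adjusted 0.952; r 0.00656 without the 2 farthest). In SK-MEL-5 it was 0.0187 (exact p = 0.964, adjusted 0.964; rho 0.0286, exact p = 1, adjusted 1; r 0.591 without the 2 farthest).

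**Figure D3:**
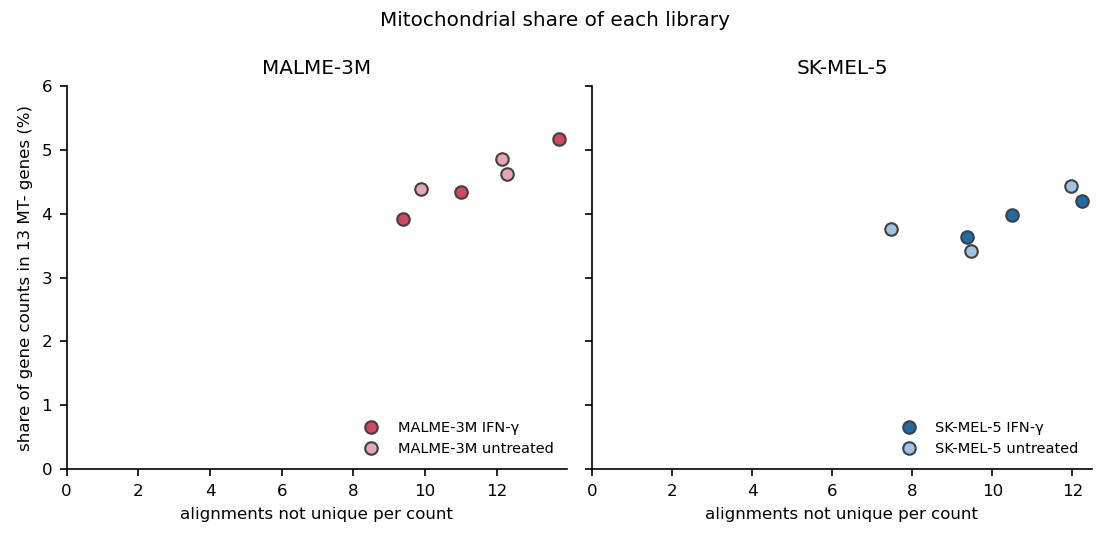
Share of gene counts in the 13 MT- genes (vertical axis, %) against alignments not unique per gene count (horizontal axis), 1 point per library, MALME-3M on the left and SK-MEL-5 on the right. In MALME-3M the treated libraries hold both ends of the share, at 3.92% and 5.16%; in SK-MEL-5 the lowest share, 3.41%, is not at the lowest ratio.

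Untreated, the lines differed in most members of the chain, as they did in most genes. Of 57 nuclear members 20 were higher and 20 lower in MALME-3M than in SK-MEL-5 (35.1% each), beside 34.5% and 37.2% of all genes tested, and the median was -0.02 (-0.07804 to 0.03481 with 1 library left out). The shares are those of the background. Counts by complex are given as a description, and no difference between complexes was tested. Complex III had 8 of 9 nuclear members lower in MALME-3M and 0 higher, with 0 higher at an unadjusted p below 0.05 or by DESeq2, and its median was -0.39. UQCR11, at 4 to 7 CPM, was the member not called. With estimated counts 6 of the 9 were lower and 1, UQCRFS1, was higher. Complex I had 16 of 34 higher and 6 lower, with a median of 0.19. Complex II had SDHC higher and SDHA, SDHB and SDHD lower, and complex IV had 3 higher and 3 lower. The summed level of complex III members was 719, 685 and 720.1 CPM in untreated MALME-3M and 990.0, 991 and 930.4 CPM in untreated SK-MEL-5 libraries, while that of complex I was 2166, 2105 and 2106 CPM and 2074, 2096 and 2026 CPM in the same order, groups that did not overlap for either complex.

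CYC1 was the member lowest in MALME-3M relative to SK-MEL-5. It had 47.98, 48.41 and 45.39 CPM in untreated MALME-3M and 118, 118 and 112 CPM in untreated SK-MEL-5 libraries, a log2 fold change of -1.296 ± 0.063 (adjusted p = 8.14e-13). NDUFB9 (-1.22 ± 0.060), NDUFS3 (-1.20 ± 0.078), NDUFS6 (-0.98 ± 0.062), SDHA (-0.95 ± 0.061), NDUFS5 (-0.84 ± 0.051), COX6C (-0.80 ± 0.077) and NDUFB11 (-0.79 ± 0.096) followed. NDUFS3 is a core subunit of the arm that reaches into the matrix, and had 20.5, 18.7 and 18.4 CPM in untreated MALME-3M and 46.7, 42.7 and 43.2 CPM in untreated SK-MEL-5 libraries. SDHA had 272, 238 and 229 CPM in untreated MALME-3M and 447, 500.3 and 478 CPM in untreated SK-MEL-5 libraries. For all 8 the untreated groups of the lines stood apart. On the other side, NDUFB10 had 203, 207 and 199 CPM in untreated MALME-3M and 115, 119 and 109.6 CPM in untreated SK-MEL-5 libraries (0.83 ± 0.057, adjusted p = 1.56e-10). SDHC was at 0.75 ± 0.078, NDUFA5 at 0.59 ± 0.054, NDUFB3 at 0.48 and NDUFB5 at 0.45. NDUFB6 and COX8A were at 0.50 (the COX8A groups overlapped). COX6A1, at 1 to 4 CPM, was at 0.98 ± 0.29, but at 0.06 by estimated counts (edgeR adjusted p = 0.445). Outside the members, PPARGC1A was at 51.2, 52.9 and 57.3 CPM in untreated MALME-3M and 283, 297 and 296 CPM in untreated SK-MEL-5 libraries (-2.44, edgeR adjusted p = 4.75e-15).

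Among nuclear members, these differences went with those of neighbouring genes. For each of the 57 nuclear members, the median log2 fold change of the other tested genes within 5 Mb was taken. Across members, Pearson's r between the member and its neighbours was 0.757, given as a description because members close together share neighbours. No such value is given for other genes, so it cannot be read as particular to the members. Of all genes tested, 50.8% were below 0. The 8 members below -0.75 had neighbours with a median below 0 in 8 of 8 cases, and the 9 above 0.4 had neighbours above 0 in 8 of 9, SDHC being the exception with a neighbour median of -0.19. CYC1, NDUFB9 and COX6C lie on chromosome 8, with neighbour medians of -0.78, -0.76 and -0.58. SDHA and NDUFS6 share the tip of chromosome 5, where the neighbours of both had a median of -0.76 and 87.0% (SDHA) and 88.9% (NDUFS6) of them were below 0. NDUFS3, on chromosome 11, had a neighbour median of -0.93, and NDUFB10, on chromosome 16, one of 0.61. NDUFS5 (-0.12) and NDUFB11 (-0.14) lay among neighbours close to 0. So did COX6A1 (0.03), NDUFB5 (0.06), NDUFA5 (0.08), NDUFB6 (0.09) and COX8A (0.15), which are among the 9 above 0.4. DNA copy number was not analysed here, and its part in the line differences was not tested.

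**Figure D4:**
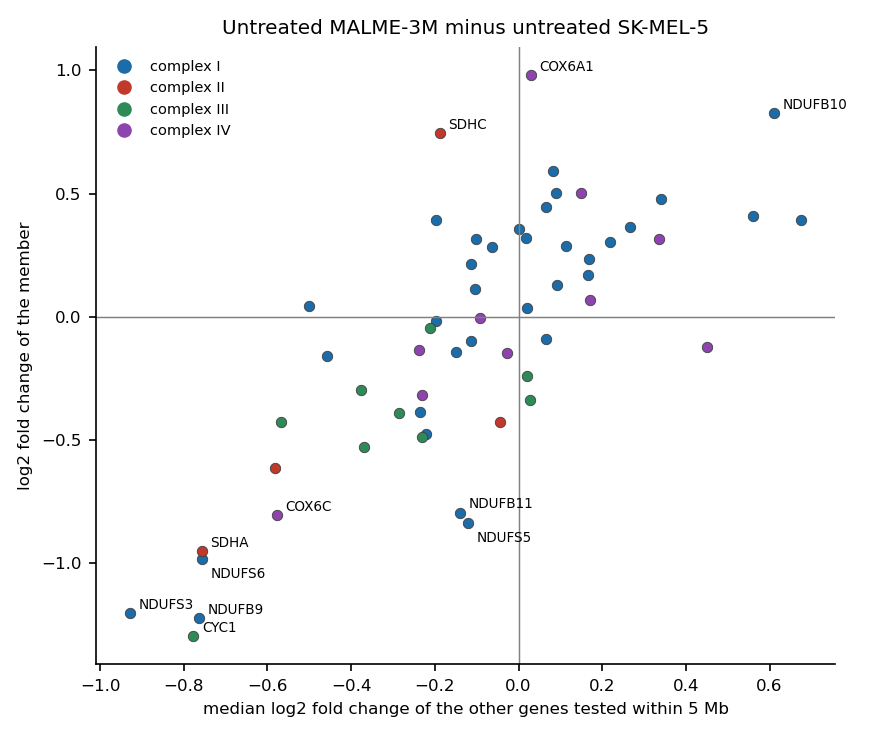
Untreated MALME-3M minus untreated SK-MEL-5: log2 fold change of each of the 57 nuclear members (vertical axis, coloured by complex) against the median of the other genes tested within 5 Mb (horizontal axis). CYC1, NDUFB9, NDUFS3, NDUFS6 and SDHA lie low on both axes, NDUFB10 high on both, and SDHC high among neighbours with a median of -0.19.

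The MT- members, though carried on 1 molecule, did not differ between the lines in 1 direction. Untreated MALME-3M was higher for MT-ATP8 (0.51 ± 0.14), MT-ND4 (0.44 ± 0.11), MT-CO1 (0.38 ± 0.094), MT-ND4L (0.37 ± 0.10) and MT-CO2 (0.20 ± 0.074). It was lower for MT-ND1 (-0.41 ± 0.11), MT-ND3 (-0.35 ± 0.13), MT-ND6 (-0.26 ± 0.087) and MT-ND2 (-0.25 ± 0.10). As shares of 13, 38.5% were higher and 30.8% lower, near the background. DESeq2 called MT-ND1 alone of the 4 lower ones. MT-ATP6 (0.23), MT-CYB (0.16), MT-CO3 (0.06) and MT-ND5 (0.06) were not called. MT-ND1, the first protein gene of the heavy-strand transcript, had 1386, 1476 and 1551 CPM in untreated MALME-3M and 2325, 1863 and 1677 CPM in untreated SK-MEL-5 libraries (adjusted p = 0.00331). MT-ND4, a proton-pumping subunit of complex I, had 9071, 9829 and 9858 CPM in untreated MALME-3M and 8205, 6811 and 6184 CPM in untreated SK-MEL-5 libraries (adjusted p = 0.0016). Neither pair of groups overlapped, so the ratio of MT-ND4 to MT-ND1 was higher in every untreated MALME-3M library. MT-ND6, the protein gene of the light strand, had 882, 794 and 768 CPM in untreated MALME-3M and 952, 909 and 1068 CPM in untreated SK-MEL-5 libraries. Gene counts of MT-ND6 were 6.78 times its estimated counts, by which its line difference was -0.05 (edgeR adjusted p = 0.84) and not called.

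MT-CO2, MT-ND2, MT-ND3 and MT-ND6 were each lost from the called members when at least 1 library was left out. Without MALME-3M untreated replicate 3, 2 MT- members were lower. Without SK-MEL-5 untreated replicate 1, 2 were lower and 8 higher. MT-ND1, MT-ATP8, MT-CO1, MT-ND4 and MT-ND4L were called in each of the 12 omissions.

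**Figure D5:**
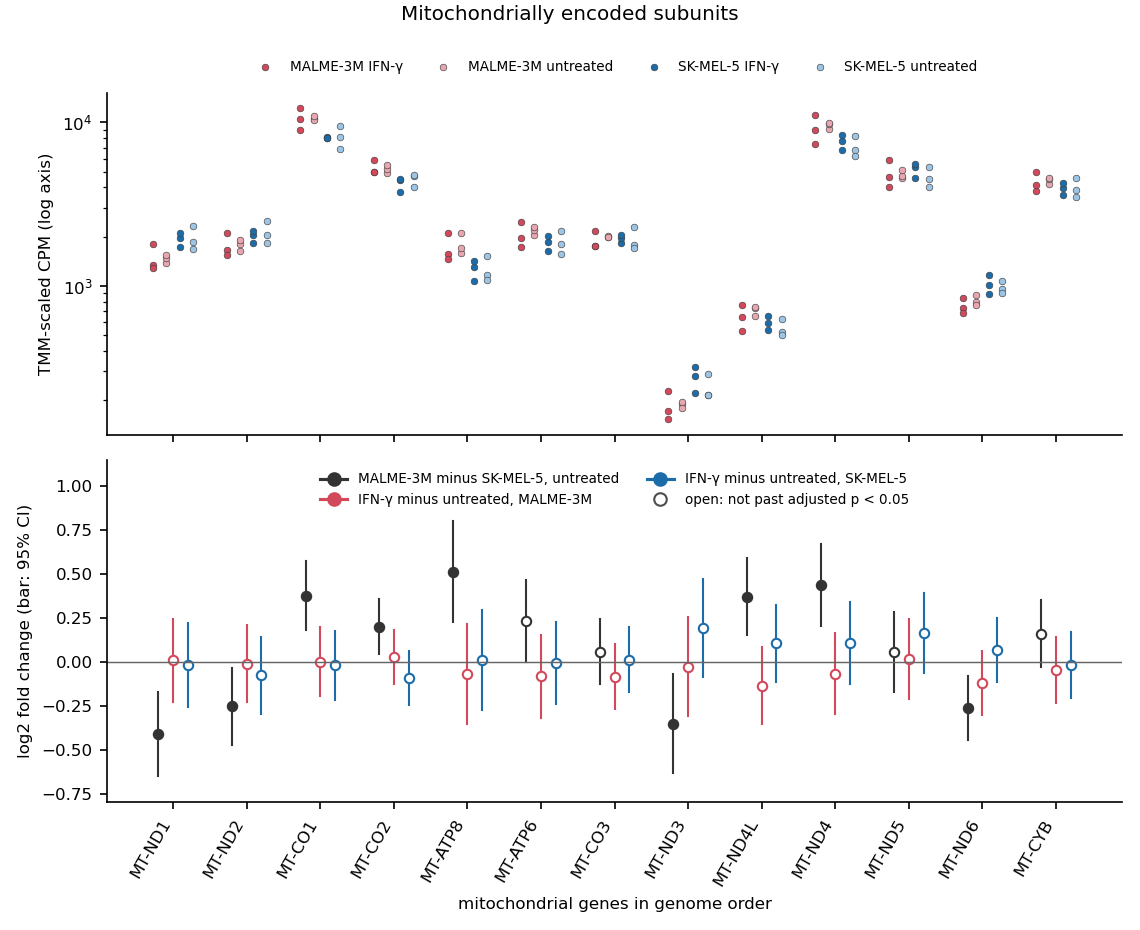
The 13 MT- members in the order of the mitochondrial genome. Above, TMM-scaled CPM in each library on a log axis, 4 groups side by side from treated MALME-3M to untreated SK-MEL-5; below, log2 fold changes with 95% intervals, filled where the adjusted p was below 0.05. The line difference ranges from -0.41 for MT-ND1 to 0.51 for MT-ATP8, and the IFN-γ changes are open points near 0.

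Levels of MT- genes, each a single exon, are given per length as a description. MT-ATP8 stood highest at 8243 ± 1666 CPM per kb in treated and 8658 ± 1269 in untreated MALME-3M, and next to it MT-CO2 at 7707 ± 724 and 7561 ± 400.4 (mean ± SD, n = 3). In SK-MEL-5, MT-ATP8 was at 6109 ± 881 CPM per kb treated and 6064 ± 1109 untreated, and MT-CO2 at 6172 ± 578 treated and 6577 ± 581 untreated, so that their order there lay within their SDs. The order depends on the measure: by TPM, in SK-MEL-5, MT-ATP8 was at 18580 ± 1312 treated and 19073 ± 2634 untreated, and MT-CO2 at 13502 ± 635 treated and 13715 ± 945 untreated. In untreated MALME-3M, MT-ND4 (6957 ± 324) and MT-CO1 (6857 ± 231) differed by less than their SD in CPM per kb, while by TPM MT-ND4 was at 10900 ± 902 and MT-CO1 at 13961 ± 630. By CPM per kb MT-ND3 was lowest in all 4 groups, at 530.4 ± 111 treated and 540.4 ± 22.8 untreated in MALME-3M and 789 ± 141 treated and 689.9 ± 121 untreated in SK-MEL-5. By TPM the lowest in all 4 groups was MT-ND6, and MT-ND3 was next. Genes that overlap on the molecule were far apart by CPM per kb. In untreated MALME-3M, MT-ATP6 was at 3190 ± 183 beside MT-ATP8 at 8658, and MT-ND4L at 2393 ± 164 beside MT-ND4 at 6957. The part of gene length and overlap in these values was not tested, so the order belongs to the measure and is not one of transcript levels.

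MT-ATP8 and MT-ATP6 overlap by 46 of the 207 bases of MT-ATP8, and reads there cannot be given to either gene by position. The last 60 bases of MT-ATP8 (GENCODE 29, GRCh38, plus strand, chrM:8513-8572) are shown with the shared bases in capitals, which begin with the start codon of MT-ATP6.
MT-ATP8: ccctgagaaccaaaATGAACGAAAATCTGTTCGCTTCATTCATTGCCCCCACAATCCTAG
MT-ND4L and MT-ND4 share 7 bases in the same way.

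Gene counts and the deposited transcript abundances were far apart for some members, which limits how their levels can be read. The ratio of gene counts to summed estimated counts had a median of 1.69 over nuclear members, 1.67 over MT- members and 2.25 over genes with at least 10 estimated counts. It was below 0.1 for NDUFB8, NDUFC2, NDUFA13, NDUFA7 and COX6A1, and above 10 for UQCRFS1, NDUFA6 and COX7B. NDUFB8, NDUFC2 and NDUFA13 are the members that failed the low-count filter. NDUFB8 had 1 to 7 gene counts in untreated SK-MEL-5 libraries, beside 487 to 712 estimated counts. In GENCODE 29, exons of NDUFB8 share 33.8% of their bases with another gene of the same strand, those of NDUFA7 32.3%, of COX8A 34.5%, of NDUFV2 28.4% and of NDUFA13 21.0%. The part of such overlaps in the counts was not tested, and no order of levels between nuclear members is given.

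Between 49.9% and 55.2% of each library's estimated counts fell on transcripts that could be tied to a gene. With the summed estimated counts in place of gene counts, 5 nuclear members fell in MALME-3M, COX4I1, NDUFA8, NDUFB10, NDUFB5 and UQCRB (DESeq2 was not run on them). In SK-MEL-5 edgeR then called 0 lower and 0 higher, with 4 lower and 0 higher at an unadjusted p below 0.05. SDHC had -0.26 ± 0.16 in MALME-3M (adjusted p = 0.433) and 0.26 ± 0.16 in SK-MEL-5 in that fit. NDUFA6, NDUFA9 and UQCRFS1 turned in direction in SK-MEL-5, to 0.26, -0.30 and 0.007. Between the untreated lines NDUFA6 and UQCRFS1 were 1.07 higher in MALME-3M by estimated counts, against -0.10 and -0.39 by gene counts, while CYC1 was at -1.303 by estimated counts.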

How the data were processed

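Gene counts are whole-number counts of reads per gene, as deposited by the authors, 1 file per library with 44700 gene rows, of which 15830 were assembled loci that carry no symbol, plus 5 summary lines kept out of library sizes. The deposited transcript files hold estimated counts and TPM per transcript, in kallisto's layout per the file headers. Per the submitters' processing notes the tools were cutadapt, STAR, SAMtools, HTSeq and kallisto, on build hg38. Their versions, the gene annotation and the strand setting were not given in the sources used here.

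From these, edgeR 4.0.16 (limma 3.58.1, R 4.3.3) was run on the gene counts of all 12 libraries, with filterByExpr (minimum count 10), TMM scaling, 1 mean per group and the quasi-likelihood test (8 residual degrees of freedom; the common coefficient of biological variation was 0.0955). Every adjusted p is edgeR's, with Benjamini-Hochberg adjustment over 15810 genes, called below 0.05; SE is the log2 fold change over the root of F. DESeq2 1.42.0, other scalings, no filter, each line alone, summed estimated counts (rounded, 12502 genes) and each library left out were alternatives. Code was tested on simulated data with 200 changed genes. TPM entered only the comparison of levels. Exon lengths and overlaps came from GENCODE 29, promoters from RefSeq. Figures used matplotlib 3.10.9, and exact permutation tests SciPy 1.17.1.

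Members and lists were chosen with earlier results of these data known. Named were all called members, the 8 largest falls and rises, all 13 MT- genes, fixed key subunits and up to 4 genes per list by adjusted p; SDHD between lines, NRF1, GABPA, and the genes with extreme count ratios or exon overlaps were named after their values were seen. Replicate numbers follow accession order and pair nothing. Some genes of the marker lists are not reported here.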

Additional observations from a re-analysis of the deposited data

Results flagged for a closer look

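SDHC was flagged because its change under IFN-γ differed between the lines by a test of the difference itself. It was 1 of 57 nuclear members (1.75%), near the 1.79% of all genes called lower in that test. The change in MALME-3M minus that in SK-MEL-5 was -0.459 on the log2 scale (edgeR adjusted p = 0.0212), from -0.55 in MALME-3M and -0.09 in SK-MEL-5. All 3 treated MALME-3M libraries lay below all 3 untreated ones, while the SK-MEL-5 groups overlapped. The adjusted p was above 0.05 in 3 of 12 omissions of a library, and 0.41 with estimated counts in place of gene counts. Dose and medium differed between the lines as well, and cannot be told apart from the line.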

How the results depend on the processing

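No paired analysis was possible because the labels give no replicate numbers. With estimated counts in place of gene counts, nuclear members called were 0 lower and 0 higher in SK-MEL-5, 5 lower and 0 higher in MALME-3M and 0 lower in the difference, MT- members lower between untreated lines were 2, and 53 estimates over the 4 comparisons changed sign, 5 of them called in either fit: in SK-MEL-5 NDUFA6 to 0.262, NDUFA9 to -0.297 and UQCRFS1 to 0.00698, and between lines NDUFA6 to 1.071 and UQCRFS1 to 1.072. The cause was not tested. Each line alone gave 2 nuclear members lower in SK-MEL-5, and the ratio of alignments not unique as a covariate, chosen after seeing the data, 5 lower and 0 higher there. Without a low-count filter, MT- members called were 1 lower and 3 higher in SK-MEL-5, 1 lower in MALME-3M, 3 lower in the difference and 8 higher between lines, and 3 nuclear members were lower in the difference. That difference also gave 3 with DESeq2 and 2 with upper-quartile scaling, and DESeq2 called 1 MT- member lower between lines. For levels between members, MT- genes held 89.75% of the summed member level by TPM and 95.64% by CPM per kb.

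Leaving out 1 library gave 1 to 8 nuclear members lower and 0 to 1 higher in SK-MEL-5, 13 to 21 lower and 0 to 1 higher in MALME-3M, and 0 to 4 lower in the difference. Between lines it gave 2 to 4 MT- members lower and 4 to 8 higher. The MT- median of the difference was -0.2429 to 0.01421. The nuclear medians under IFN-γ kept their sign in each omission, at -0.1127 to -0.04977 in SK-MEL-5 and -0.1651 to -0.1421 in MALME-3M, while that between untreated lines did not, at -0.07804 to 0.03481.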
